A study of Mus musculus with 2 samples.

Results

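The transcripts described here are those of 33 genes of the endoplasmic reticulum (ER) that fold newly made secretory and membrane proteins, watch over folding, or take misfolded chains out for degradation. They were chosen by name from knowledge of their function, out of 20655 genes that have a named probe on the arrays. Earlier results of these data were known when they were chosen. All 33 were found, with 41 probes on 50 spots, and each was well above background on both arrays. Total RNA of mouse lens at postnatal day 0 was hybridised to Agilent 1-colour arrays, 1 array of control lens and 1 array of lens labelled as Foxp1 KO. Both came from a C57BL/6 mixed background, and the control is labelled wild-type. The protocol text of both samples names Foxp1-flox/flox with Pax6-L-Cre, so whether the control animals carried the floxed allele or Cre is not settled by the labels. The sources used here do not say how many animals gave each RNA. With 1 array for each genotype there is no replicate, no p-value is given, and every difference below is a difference between these arrays. Each genotype has its own position on the slide, so position and genotype cannot be told apart.

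Proteins bound for the cell surface, for secretion or for membranes enter the ER through the Sec61 channel. There the Hsp70 chaperone BiP (Hspa5), the Hsp90 chaperone Grp94 (Hsp90b1) and the lectin chaperones calnexin and calreticulin bind them, and protein disulfide isomerases form and reshuffle their cysteine bonds. Chains that do not fold are pulled back to the cytosol and degraded, which is called ER-associated degradation (ERAD). Unfolded protein in the ER activates the membrane sensors IRE1 (Ern1), PERK (Eif2ak3) and ATF6, which raise transcription of chaperone and ERAD genes. In the lens, fibre cells make large amounts of membrane protein, and the lens epithelium secretes the capsule, while maturing fibres later lose their organelles, the ER included. IRE1 acts by splicing Xbp1 RNA, ATF6 is cleaved, and PERK is phosphorylated. None of these steps is read by the probes, which report transcript amount alone.

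The best known DNA element of these genes is the ER stress element (ERSE), in which CCAAT and CCACG stand with any 9 bases between them, and which the factor NF-Y reads together with ATF6 or XBP1. The compact form ERSE-II, ATTGG and CCACG with any 1 base between them, is known from Herpud1 and holds CCAAT in reverse. No ERSE-II overlapped an ERSE here. Both were searched on both strands of RefSeq windows of 300 bases, 250 before and 50 after each annotated start, in the build GRCm38.p6. A window was held for 28 of the 33 genes, and not for Atf6, Derl1, Hyou1, Manf and Sil1. Of these 28 genes 9 carried an ERSE, against 39 of all 32851 windows of that length (0.119%), and 2 carried an ERSE-II, against 12 windows (0.0365%). The 28 genes have 29 windows, so counts of genes stand here beside counts of windows. No gene carried both. Both forms are known from genes of this set, so their excess over all windows was given beforehand and is no result of these data. Most of the 28 genes carry neither form. Each line gives the position relative to the start site, where -1 is the last base before it, and the strand relative to the gene. The site is written 5′ to 3′ with its fixed letters in capitals:
Hspa5, ERSE, bases -65 to -47, same strand, chr2:34772025-34772043: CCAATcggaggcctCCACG
Creld2, ERSE, bases -126 to -108, opposite strand, chr15:88819520-88819538: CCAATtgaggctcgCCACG
Canx, ERSE, bases -145 to -127, same strand, chr11:50325800-50325818: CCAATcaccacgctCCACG
Syvn1, ERSE, bases -44 to -26, same strand, chr19:6046532-6046550: CCAATcggcggtagCCACG
Hsp90b1, ERSE, bases -212 to -194, same strand, chr10:86705638-86705656: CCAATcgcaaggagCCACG
Hsp90b1, ERSE, bases -107 to -89, opposite strand, chr10:86705533-86705551: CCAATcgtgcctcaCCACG
Pdia6, ERSE, bases -98 to -80, same strand, chr12:17266491-17266509: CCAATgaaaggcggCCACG
Calr, ERSE, bases -162 to -144, opposite strand, chr8:84847075-84847093: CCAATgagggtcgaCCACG
Dnajc3, ERSE, bases -105 to -87, same strand, chr14:118937827-118937845: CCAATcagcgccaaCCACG
Derl3, ERSE, bases -156 to -138, opposite strand, chr10:75893242-75893260: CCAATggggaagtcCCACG
Herpud1, ERSE-II, bases -52 to -42, same strand, chr8:94386377-94386387: ATTGGgCCACG
Dnajb11, ERSE-II, bases 8 to 18, same strand, chr16:22857852-22857862: ATTGGcCCACG
All sites lay between bases -212 and -26, apart from that of Dnajb11 in the first bases of the transcript. Hsp90b1 alone had 2 copies of the ERSE in this window. For 3 genes whose readings are set against each other below, the 250 bases before the start are shown, with the whole site in capitals. Hspa5 carries the ERSE and read higher on the knockout array, Calr carries the same element and read lower, and Herpud1, with the ERSE-II, had the largest difference of all 33 genes:
Hspa5, plus strand, chr2:34771840-34772089: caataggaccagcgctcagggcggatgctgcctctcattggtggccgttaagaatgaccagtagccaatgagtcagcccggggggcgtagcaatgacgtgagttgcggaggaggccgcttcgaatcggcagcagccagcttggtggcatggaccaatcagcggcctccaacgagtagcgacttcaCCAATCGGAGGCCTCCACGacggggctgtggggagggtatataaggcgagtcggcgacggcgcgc
Calr, minus strand, chr8:84846932-84847181: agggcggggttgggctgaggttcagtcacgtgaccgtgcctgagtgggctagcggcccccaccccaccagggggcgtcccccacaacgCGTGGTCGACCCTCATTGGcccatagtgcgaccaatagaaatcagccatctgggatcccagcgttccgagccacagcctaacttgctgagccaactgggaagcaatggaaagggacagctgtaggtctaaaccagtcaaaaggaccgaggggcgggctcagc
Herpud1, plus strand, chr8:94386179-94386428: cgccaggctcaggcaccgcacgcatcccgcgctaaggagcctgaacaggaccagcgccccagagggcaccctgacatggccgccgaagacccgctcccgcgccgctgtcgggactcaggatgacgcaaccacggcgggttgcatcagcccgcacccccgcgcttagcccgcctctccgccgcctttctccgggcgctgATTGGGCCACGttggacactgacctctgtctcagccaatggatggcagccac
In Calr the site runs on the opposite strand, so that its capitals read from CGTGG to ATTGG. Other elements were searched in the same windows. The unfolded protein response element TGACGTGG, whose reverse complement starts with the CCACG that also ends an ERSE, was found in 0 of 28 genes and 0.676% of all windows. The ATF4 element TGATGNAAT was found in 0 of 28 genes and 0.965% of all windows. The forkhead sequence TGTTTAC was found in 1 of 28 genes, Dnajc10, and in 3.65% of all windows. A match is a match of letters and not a measured binding site.

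Each array carried 59305 spots for genes, of which 67.5% (control) and 56.9% (knockout) were well above background. Differences are log2 processed signals, each relative to the 75th percentile of its array, knockout minus control, and the mean is taken over the probes of a gene. Foxp1, the targeted gene, read lower with all 3 probes, at -1.82, -1.84 and -1.33. Dim signals read lower on the knockout array in general. With the 14254 genes measured on both arrays split into 5 classes by signal, the dimmest class had a median of -0.50 and the brightest 0.078, and an added E1A spike-in RNA at signals of 81.4 and 37.2 differed by -1.12. The lens markers Cryaa, Cryab, Crybb2, Crygs, Mip, Bfsp1, Bfsp2, Lim2, Foxe3 and Pax6 were all above background, with a median of -0.017. Markers of retina and neurons were higher, 10 of 10 above 0, with summed signals of 6770.5 and 9488. The other marker lists were pigment epithelium (5 of 5 measured below 0), macrophages (4 of 4 below 0), erythroid cells (3 of 3 below 0), hyaloid vessels (4 of 6 below 0), mesenchyme (3 of 4 above 0) and plasma and other secretory cells (2 of 4 above 0). Their summed signals were 2161 and 1572, 555 and 431, 15001 and 12350.3, 1483 and 1554, 1002 and 1334, and 2086 and 2486, control first. Rpe65 was above background on neither array, and Dcn and Lum on the knockout array alone. The part of such cells in the results below was not tested, and fewer cells of a type cannot be told apart from less RNA in each cell.

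No gene of the ER set was 2-fold apart between the arrays. At 2-fold, the size that counted as a difference, 0 of 33 were higher and 0 of 33 were lower, while 1.02% of all measured genes were higher and 5.86% lower. The ER genes ran from -0.55 for Derl3 to 0.60 for Herpud1, with a median of 0.13 and an SD of 0.25 over genes, and 20 lay above 0 and 13 below. All measured genes had a median of 0.0060 and an SD of 0.53, with 50.9% above 0. The comparison depended on signal. In the brighter part of the genes, those not under the median signal, 14 of 22 ER genes lay above 0 with a median of 0.14, and 67.8% of all such genes lay above 0 with a median of 0.082. Of all brighter genes 0.842% were 2-fold higher and 0.393% lower, against 0 ER genes each way. Set against the median of its own signal class, 19 of 33 ER genes were higher, and the median excess was 0.057. A smaller size of 1.2-fold was added after the data were seen. It took in 7 ER genes as higher (Herpud1, Sdf2l1, Eif2ak3, Manf, Hspa5, Creld2 and Canx), where the share over all measured genes was 16.3%, and 3 as lower (Derl3, Hyou1 and Ern1), where it was 24.6%. Among the brighter genes it took in 5 of 22 ER genes as higher, beside 18.2% of all, and 0 of 22 as lower, beside 6.06% of all. The ER share on the higher side was thus near the background. With the 75th percentile taken over spots above background on both arrays, the counts of 7 and 3 became 2 higher and 6 lower. Of all measured genes 8.79% were then at least 1.2-fold higher and 33.1% lower. P4hb, at 1.19-fold, lay just under that size.

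**Figure D1:**
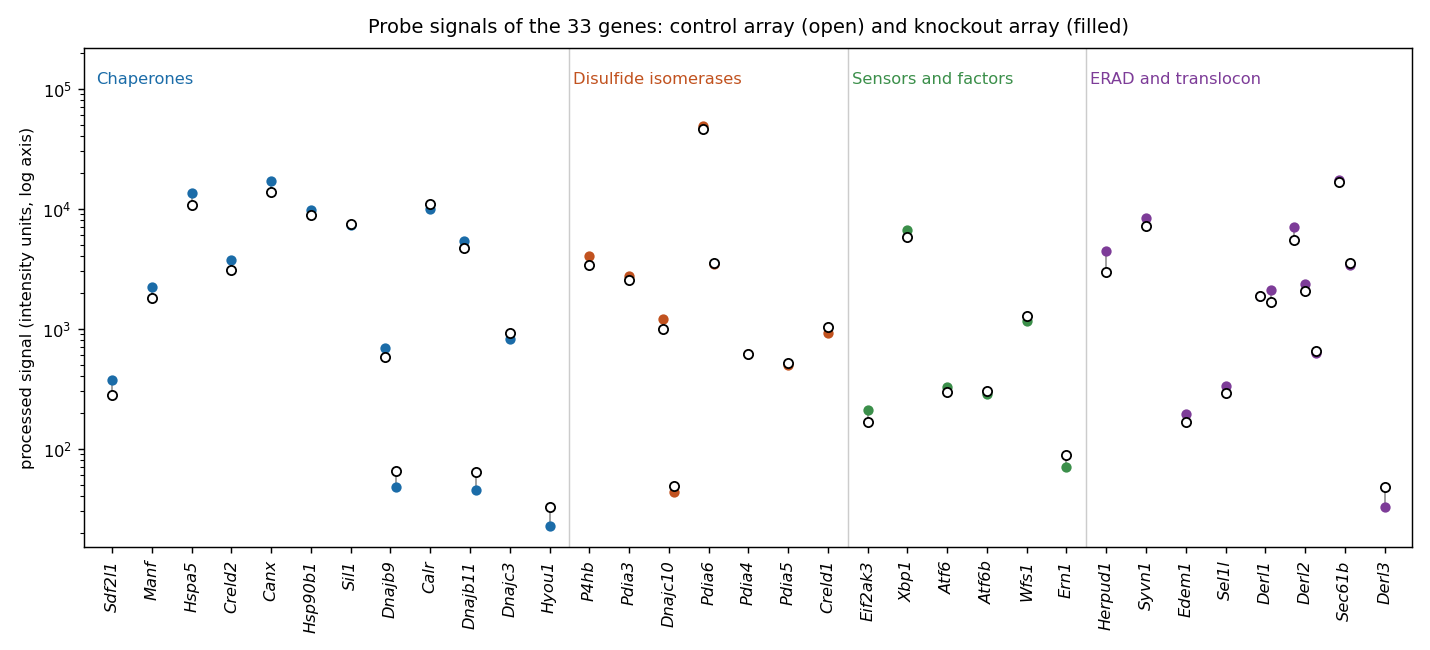
Processed signal of each probe of the 33 genes on a log axis, with open circles for the control array, filled circles for the knockout array and a line joining both readings of a probe. Genes are grouped by role and ordered by difference, and the filled circle lies close to the open one throughout, with the widest gaps at Herpud1 and at the dim probes of Hyou1, Derl3, Dnajb9 and Dnajb11.

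Among the 12 chaperones and their cofactors, 6 lay above 0 and 6 below, with a median of 0.062 and a range from -0.53 to 0.43. The highest was Sdf2l1, a partner of BiP and its J-domain proteins, with a control signal of 280.2 and a knockout signal of 374. Its difference was 0.43 ± 0.12, or 1.35-fold, where the error here and below is the SD expected from spot noise alone. Manf, a secreted ER protein that binds BiP and is induced by ER stress, read 1793 and 2237, a difference of 0.33 ± 0.12. Hspa5, the BiP gene, read 10767 and 13383, a difference of 0.33 ± 0.083 or 1.25-fold. These 3 genes were each read by 1 spot on each array, so the spot error comes from other probes of like signal.

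Creld2, an ER protein with thioredoxin-like activity that is induced with BiP, was the gene with the most spots, its probe being printed 10 times on each array. The control spots ran from 2920.03 to 3183 with a median of 3079, and the knockout spots ran from 3313 to 4121 with a median of 3760.1. All 10 knockout spots were brighter than every control spot. The difference was 0.31, or 1.24-fold, and the 10 spot differences ran from 0.20 to 0.44 with an SD of 0.083. These spots are repeats of 1 RNA on 1 array and say nothing of the spread between animals.

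Canx, calnexin, the membrane-bound lectin chaperone, read 13876 and 16889.6, a difference of 0.30 ± 0.083. Its soluble relative Calr, calreticulin, read 10862 and 9898, a difference of -0.12 ± 0.083. The lectin chaperones thus lay on either side of 0, at 0.30 and -0.12, although the windows of both hold an ERSE. Hsp90b1, the ER Hsp90, read 8827 and 9687, a difference of 0.15 ± 0.083. Sil1, a nucleotide exchange factor of BiP, read 7492 and 7299, a difference of -0.024, and Hyou1, the large Hsp70 relative that also exchanges BiP nucleotide, read 32.9 and 22.6. The Hyou1 probe was dim, and its difference of -0.53 ± 0.24 lay near the median of its signal class, -0.50.

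J-domain cofactors of BiP had probes that disagreed. Dnajb9 (ERdj4), which also holds IRE1 inactive, was read by a probe at 582 and 694, a difference of 0.27, and by a dim probe at 65.4 and 47.5, a difference of -0.45. Dnajb11 (ERdj3) showed the same split, with a probe at 4731 and 5402, a difference of 0.20, and a dim probe at 63.8 and 45.2, a difference of -0.48. The Dnajb11 probes are annotated to different transcripts of the gene, whereas both Dnajb9 probes are annotated to the same one. The means over probes, -0.091 for Dnajb9 and -0.14 for Dnajb11, were below 0, and both genes turned above 0 when the brightest probe alone was used. Dnajc3 (p58IPK), which restrains PERK and helps BiP, had 1 probe at 920.2 and 827, a difference of -0.14 ± 0.12. Over the whole set, all 6 probes with a control signal under 100 read lower on the knockout array, against which 24 of the 35 brighter probes read higher. All measured genes split in the same way. In the dimmest of 5 signal classes 20.5% of them lay above 0, and in the brightest 70.2%.

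The 7 disulfide isomerases and related oxidoreductases had the narrowest spread of the 4 roles, with an SD of 0.12, a median of 0.048 and none beyond 1.2-fold. P4hb, protein disulfide isomerase itself and the beta subunit of collagen prolyl hydroxylase, read 3403 and 3995 and was highest at 0.25 ± 0.083. Pdia3 (ERp57), which works with calnexin and calreticulin on glycoproteins, read 2544 and 2768, a difference of 0.14 ± 0.083. Pdia6 (P5), which acts on clients of BiP and on IRE1, was read by 2 probes, at 45765 and 48701 and at 3511 and 3459.6, with differences of 0.10 and -0.0075. Pdia4 (ERp72) read 617 and 609, a difference of -0.0042, and Pdia5 read 513 and 494, a difference of -0.040. Both were closer to 0 than their spot SD of 0.12. Dnajc10 (ERdj5), a reductase that opens disulfide bonds before ERAD, had probes at 989 and 1204 and at 48.7 and 43.5, with differences of 0.30 and -0.15. Creld1, a membrane relative of Creld2, read 1029.6 and 926, a difference of -0.14 ± 0.12, on the other side of 0 from Creld2 at 0.31.

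The 6 genes for stress sensors, their factors and the regulator Wfs1 split evenly, 3 above 0 and 3 below, with a median of 0.026. Eif2ak3, the kinase PERK, read 166 and 209, a difference of 0.35 ± 0.16. Ern1, the sensor IRE1, read 87.8 and 69.7, a difference of -0.32 ± 0.24, and was among the 6 dim probes above. Atf6 read 299 and 325 and its relative Atf6b read 303 and 284, with differences of 0.13 and -0.081, each ± 0.12. Xbp1, whose spliced RNA encodes the main activator of ERAD genes, read 5781 and 6607, a difference of 0.21 ± 0.083. Its probe reads Xbp1 RNA as a whole, so the spliced share is not measured. Wfs1, the ER membrane protein wolframin, which restrains ATF6 and whose loss causes Wolfram syndrome, read 1276 and 1157, a difference of -0.13 ± 0.12.

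Of the 8 ERAD and translocon genes 7 lay above 0, with a median of 0.20, the highest of the 4 roles. Above 0 lay 50.9% of all measured genes and 67.8% of the brighter ones. The larger list of further ERAD genes described below did not share this median, with 13 of 23 above 0 and a median of 0.012. Herpud1, a membrane organiser of the ERAD complex, read 2984 and 4469, a difference of 0.60 ± 0.083 or 1.51-fold. This exceeded 96.2% of measured genes, and 536 of them lay higher still. Syvn1 (Hrd1), the ubiquitin ligase at the centre of the complex, read 7229 and 8329, a difference of 0.22 ± 0.083. Sel1l, its partner, read 292 and 333, a difference of 0.20 ± 0.12, and the mannosidase-like Edem1 read 168 and 193, a difference of 0.21 ± 0.16.

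The Derlins, membrane proteins through which misfolded chains leave the ER, differed among themselves. Derl1 had probes at 1859 and 1876 and at 1674 and 2109, with differences of 0.027 and 0.35. Derl2 had 3 probes, at 5436 and 6999, at 2079 and 2376, and at 651 and 623, with differences of 0.38, 0.21 and -0.051. Derl3 was dim at 48.0 and 32.6, a difference of -0.55 ± 0.24, close to the median of its signal class. Sec61b, a small subunit of the protein channel, had probes at 16809 and 17449 and at 3544 and 3406, with differences of 0.068 and -0.044.

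**Figure D2:**
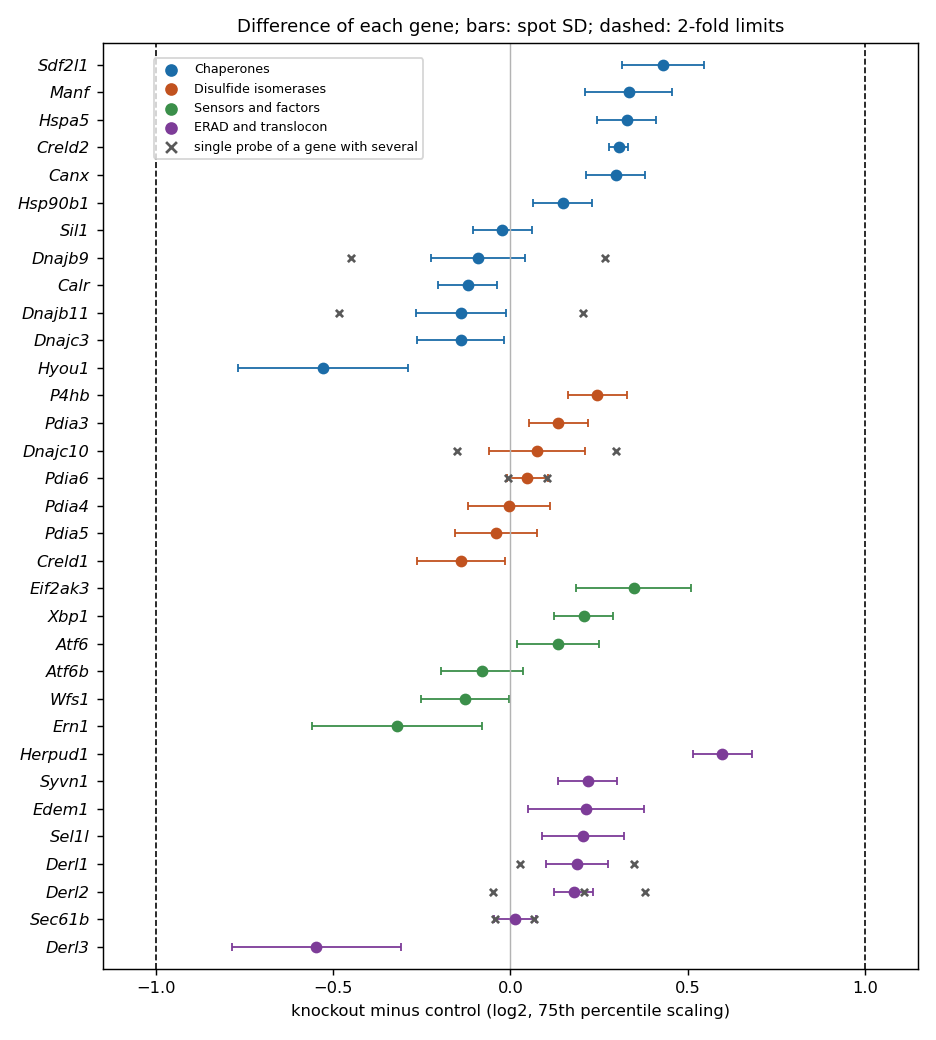
Difference between the arrays for each gene on the log2 scale, with bars of ±1 spot SD, crosses for the single probes of the 7 genes with several probes, and dashed lines at 2-fold. Herpud1 is farthest to the right at 0.60, and Derl3 and Hyou1 are farthest to the left at -0.55 and -0.53.

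Spot noise set a limit that part of the set did not pass. Of the 33 genes 19 lay within 2 spot SD of 0, 12 lay beyond it above 0, where the share over all measured genes was 20.0%, and 2, Derl3 and Hyou1, lay beyond it below 0, where it was 23.6%. Among the brighter genes 10 of 22 ER genes lay beyond it above 0, beside 28.3% of all, and 0 of 22 below 0, beside 9.57% of all. These counts depended on where the scaling put 0. With the 75th percentile taken over spots above background on both arrays, 5 ER genes lay beyond 2 spot SD above 0 (Herpud1, Sdf2l1, Hspa5, Creld2 and Canx) and 7 below it (Calr, Dnajc3, Wfs1, Creld1, Dnajb11, Hyou1 and Derl3), where 1425 and 4989 of the 14254 measured genes lay. The pooled SD of a spot difference was 0.24 in the dimmest of 5 signal classes of repeated probes and 0.083 in the brightest. This error leaves out the spread between animals, dissections and labelling reactions, which 1 array for each genotype cannot give. It also leaves out disagreement between probes of a gene. Derl1, with probes at 0.027 and 0.35, and Derl2, at 0.38, 0.21 and -0.051, are among the 12 and among the 10 brighter genes.

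**Figure D3:**
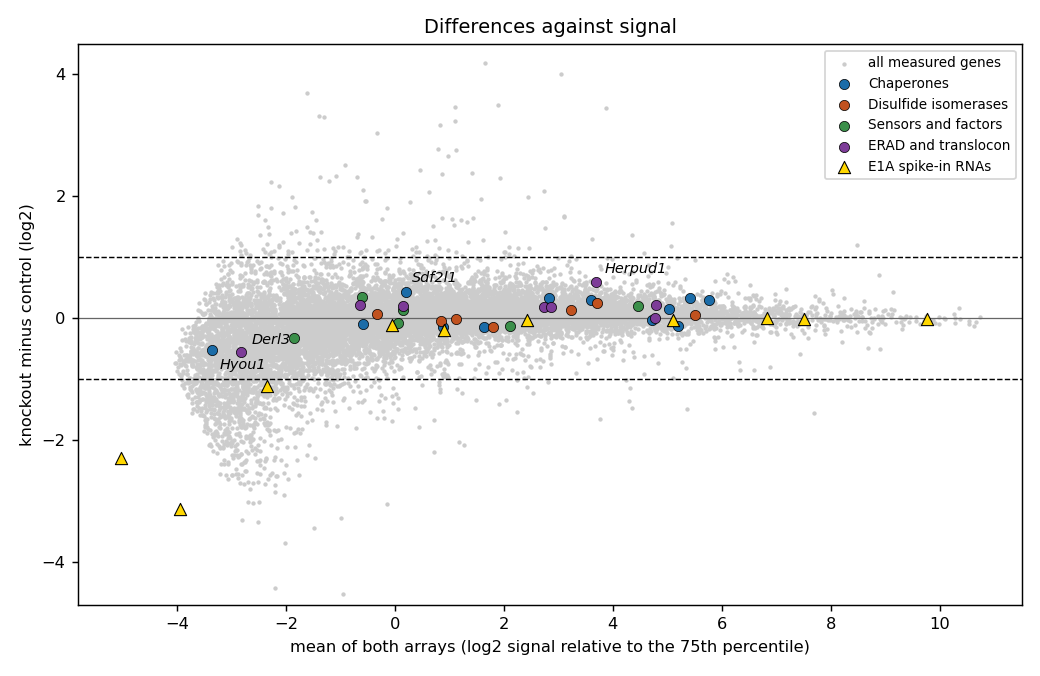
Difference between the arrays (log2) against the mean scaled signal of both arrays (log2) for all 14254 measured genes in grey, the 33 ER genes in colour by role, and the E1A spike-in RNAs as triangles. The ER genes lie inside the 2-fold lines, and at the left, where grey points and triangles bend downwards, Hyou1 and Derl3 lie at -0.53 and -0.55.

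The ERSE and the readings were set side by side without a test. Of the 9 genes with an ERSE 6 lay above 0, with a median of 0.15 and a range from -0.55 to 0.33. The 19 genes whose windows held no ERSE had 11 above 0 and a median of 0.074, and the ranges of both groups overlapped widely. Hspa5, Creld2, Canx, Syvn1, Hsp90b1 and Pdia6 were the 6 above 0, and Calr, Dnajc3 and the dim Derl3 were the 3 below. Of the ERSE-II genes Herpud1 lay at 0.60, while Dnajb11 lay at -0.14 over its 2 probes, the brighter at 0.20 and the dim one at -0.48.

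Further genes of the same pathways were read in 4 lists. Of 26 measured genes of oxidative folding and the calnexin cycle 14 lay above 0, the median was 0.034, and 1 was beyond 2-fold. This was Pdia2, an isomerase known from pancreas, which read dimly at 96.0 and 34.1, a difference of -1.48 with probes at -1.86 and -1.10. Ero1b, an oxidase of the isomerases, lay at -0.65 and Fkbp7, an ER prolyl isomerase, at -0.56. Of 23 further ERAD genes 13 lay above 0, the median was 0.012 and 0 passed 2-fold. Man1b1, a mannosidase that marks glycoproteins for ERAD, read 6433 and 4714, a difference of -0.43, the ERAD lectin Erlec1 lay at 0.36, and Edem2 lay at -0.35. Of 27 genes of the translocon, signal peptidase and N-glycosylation 19 lay above 0, the median was 0.10 and 0 passed 2-fold. The largest were Srp9 at -0.33, with probes that disagreed at -0.68 and 0.025, Ssr3, a subunit of the translocon-associated complex, at 0.32, and Stt3b, a catalytic subunit of oligosaccharyltransferase, at 0.30. Of 15 genes for sensor processing and relatives of the sensors 10 lay above 0, the median was 0.12 and 0 passed 2-fold. The ATF6-like factor Creb3 read 1729.6 and 2330.2, a difference of 0.44. The KDEL receptor Kdelr3 lay at -0.37 and Tmbim6, an inhibitor of IRE1 and of cell death, at -0.35.

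The integrated stress response, which PERK shares with other kinases of eIF2alpha and which runs through ATF4, held genes further apart between the arrays. Of its 24 measured genes 3 were past 2-fold on the higher side and 0 on the lower, with a median of 0.17. Over all measured genes these shares were 1.02% and 5.86%. Chac1, which degrades glutathione, read 168 and 1491, a difference of 3.17. Trib3, a pseudokinase that feeds back on ATF4, lay at 2.26 and Ppp1r15a, the phosphatase subunit that reverses the response, at 1.56, with Ppp1r15a signals of 5602 and 16316. Atf4 lay at -0.044 and Ddit3 (CHOP) at 0.15, both named here after their values were seen. Chac1, Trib3 and Ppp1r15a are named as the 3 largest differences of a list chosen with earlier results of these data known. Their distance from the highest ER gene, Herpud1 at 0.60, therefore follows in part from that choice. Of 27 measured cytosolic chaperones 19 lay above 0, 0 were 2-fold higher and 1, Hspa1a, was 2-fold lower at -1.30 and dim, and the median was 0.071. Hsph1 and Bag3 lay at 0.67 and 0.46. Ubxn4 and Creb3l3, of the ERAD and sensor lists, were above background on neither array, and no probe was matched to Hspa1b. Differences between these lists were not tested, as there is no replicate.

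**Figure D4:**
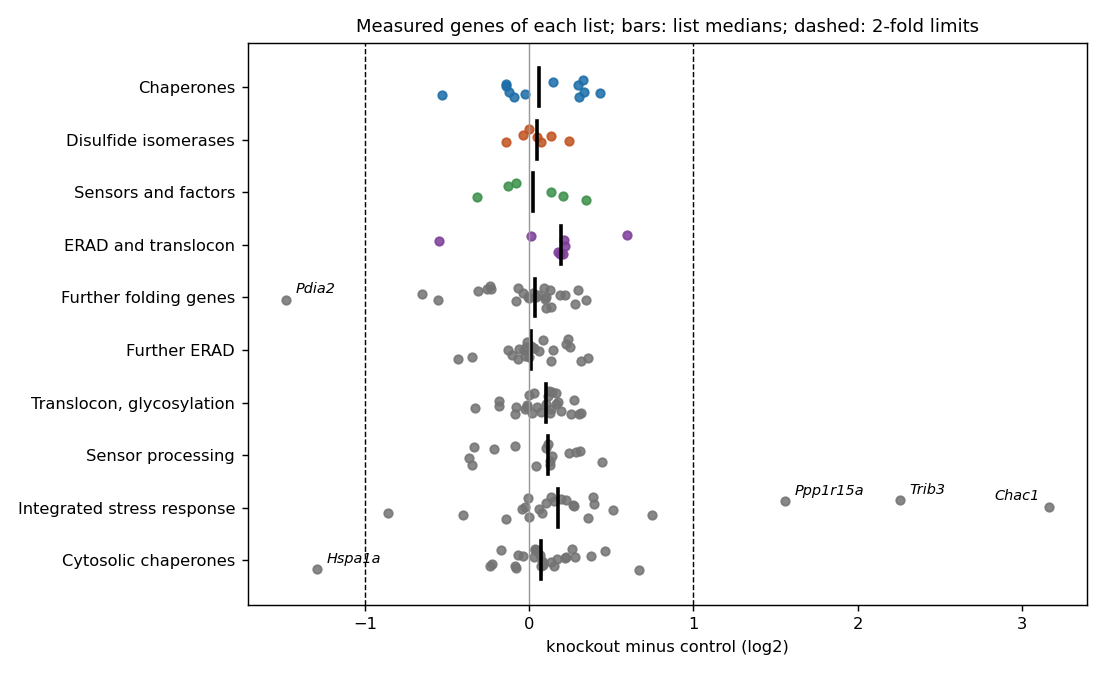
Difference between the arrays (log2) of every measured gene in the 4 roles of the ER set (coloured points) and in 6 related lists (grey points), with black bars at list medians and dashed lines at 2-fold. Names are given beyond 2-fold, where Chac1 (3.17), Trib3 (2.26) and Ppp1r15a (1.56) stand apart on the right and no gene of the ER set is found.

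Signs near 0 depended on the scaling between arrays. Taking the 75th percentile over spots above background on both arrays lowered every gene by 0.13, which left 17 ER genes above 0 and 16 below. Scaling by array medians raised every gene by 1.08, which placed all 33 above 0. Both scalings moved the E1A spike-in RNAs by the same amounts as the genes. In the main setting, spike-ins with control signals from 1534 to 247713 read between -0.025 and 0.012. Those with control signals of 284 and 566 read -0.11 and -0.19. Relative to the median of all genes, the ER median stayed between 0.062 under quantile normalization and 0.29 without a filter on background. Without the filter the ER median itself was unchanged at 0.13. The median of all genes was -0.16 there, over 20655 genes rather than 14254. The ERAD and translocon median stayed between 0.098 and 0.36 above that of all genes in the 10 settings, and that of the chaperones between 0.056 and 0.22. Both upper values again came from the setting without a filter. The chaperone median was the higher of the pair under quantile normalization, with brighter probes only and with the brightest probe of each gene. The disulfide isomerases and the sensors changed sign relative to all genes. Herpud1 was the highest ER gene in 9 of 10 settings, and under quantile normalization Hyou1 was. Several of these settings could not change that rank. Array medians and the percentile over measured spots shift every gene alike, which also fixes distances from the median of all genes. Without a background filter and with outlier spots kept, every ER value was that of the main setting. Calr lay below 0 in every setting but the array medians.

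**Figure D5:**
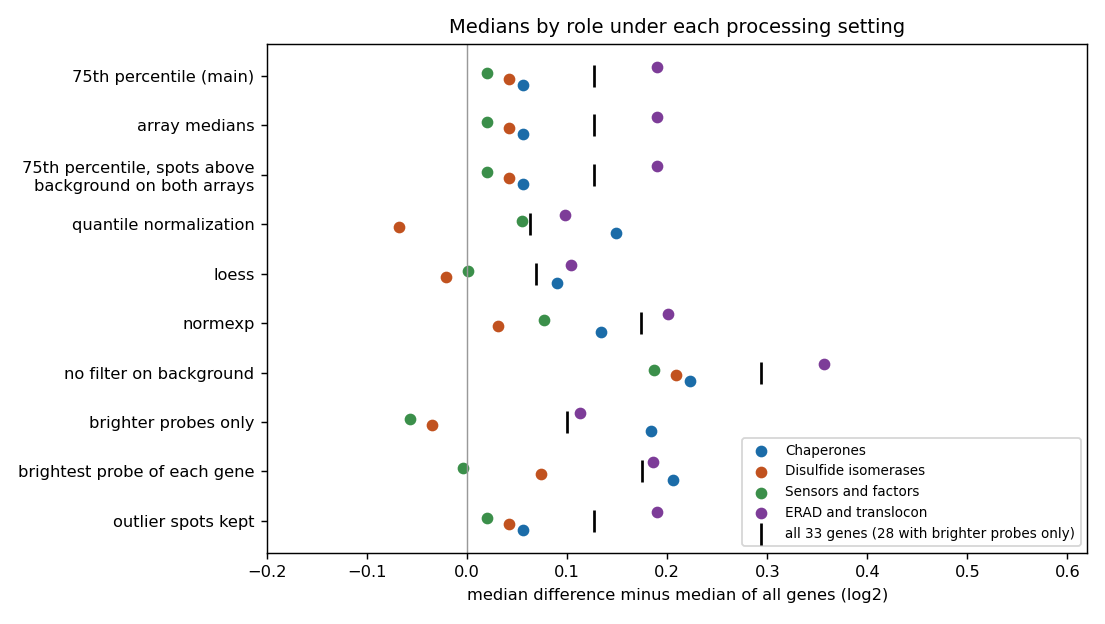
Median difference of each role minus the median of all genes (log2) under 10 processing settings, with coloured points for the roles and a black tick for the whole ER set. Points of ERAD and of the chaperones lie to the right of 0 in each setting, while those of the disulfide isomerases and of the sensors cross 0.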

How the data were processed

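Lens RNA of 2 samples, 1 control and 1 knockout, was measured on SurePrint G3 arrays and labelled with Cy3, per the labels. The values used are intensities deposited by the authors for each spot. Per the file headers, the scans were read with Agilent Feature Extraction 10.7.3.1 on a layout of build mm9, after background subtraction and without scaling between arrays. Flags for outliers, saturation and signal well above background are yes or no values of the deposited files. No spot was saturated.

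Control spots and 263 outlier spots were left out. The 75th percentile of log2 signal was subtracted from each array, spots of a probe were averaged, and probes entered if the background flag was passed by over 50% of their spots on each array. Probes were named by matching RefSeq transcripts to a GRCm38.p6 table, which named 27225 of 55655 probes and 20655 genes. Called means 2-fold. Spot error is the SD of spot differences over 280 probes with at least 5 spots measured, in 5 signal classes. Steps were tested on simulated data. Python 3.11.15 and limma 3.58.1 were used.

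The rule named all 33 members, Foxp1 and, of each related list, the 3 genes of largest difference. The members, the lists, the motifs and the 1.2-fold size were chosen with earlier results of these data known. Alternatives were array medians, the percentile over measured spots, quantile normalization, loess, normexp (offset 50, on median rather than mean pixel signals, a change made after the files were seen), no background filter, brighter probes, the brightest probe and outlier spots kept. The number of arrays limits the precision.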

Additional observations from a re-analysis of the deposited data

How the results depend on the processing

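No ER gene passed 2-fold in either direction under any setting except array medians, which made 23 of 33 at least 2-fold higher and placed the medians at 1.21 for all ER genes, 1.14 for chaperones, 1.13 for disulfide isomerases, 1.10 for sensors and 1.27 for ERAD, with 33 genes at least 1.2-fold higher and 0 lower. That scaling moved the median of all genes by 1.08, and the E1A spike-in RNAs by as much. Under it 61.2% of all measured genes were at least 2-fold higher. At 1.2-fold 91.5% of all measured genes were higher and 3.12% lower. With the percentile over spots above background on both arrays, the counts past 1.2-fold were 2 on the higher side and 6 on the lower. Over all measured genes the shares there were 8.79% and 33.1%. In this setting the medians of chaperones, disulfide isomerases and sensors turned to -0.065, -0.079 and -0.10. The median of the disulfide isomerases turned to -0.0070 under quantile normalization and to -0.0055 after loess. The count at least 1.2-fold lower, 3 in the main setting, was 0 under quantile normalization, 0 after loess and 1 after normexp. Over all measured genes the shares were 12.7%, 17.4% and 16.9%, beside 24.6% in the main setting. The setting with brighter probes only kept 28 ER genes and dropped Derl3, Hyou1 and Ern1. Its count of 0 could therefore not include these 3 genes. With the brightest probe of each gene 11 were at least 1.2-fold higher, beside 7 in the main setting. The shares over all measured genes were 18.2% and 16.3%. The chaperone median was 0.27 with brighter probes only and 0.24 with the brightest probe of each gene, settings that drop the dim probes of Dnajb9 and Dnajb11. Keeping outlier spots changed no ER value. With 1 array for each genotype no replicate could be left out. No paired analysis was possible because each genotype has 1 array. Signals under 100 lie where spike-ins read lower on the knockout array, which limits Hyou1, Derl3, Ern1 and the dim probes of Dnajb9, Dnajb11 and Dnajc10. Spike-ins with control signals of 284 and 566 also read lower, at -0.11 and -0.19. Control signals from 166 to 617 were read for Eif2ak3, Edem1, Sdf2l1, Sel1l, Atf6, Atf6b, Pdia4, Pdia5 and the brighter Dnajb9 probe. These readings are limited too.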

Other observations

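Few genes outside the ER set carried the strict ERSE letters, and those that did were read without a common direction. They numbered 28, of which 12 were measured on both arrays, with 5 above 0, a median of -0.15 and a range from -1.11 to 0.36. Apart from Hnrnpa3 and Pan2, at 0.19 and 0.15, the measured ones lay below the median signal. All measured genes below that signal had a median of -0.17, so these readings cannot be told apart from the effect of dim signal. Among them was Alg12, a mannosyltransferase of N-glycan assembly, whose start faces that of Creld2. The same ERSE at chr15:88819520-88819538 lies in the windows of both genes. Alg12 lay at 0.19 and Creld2 at 0.31. Ero1b, the oxidase of the disulfide isomerases, also carries an ERSE in its window and lay at -0.65. The lowest of the group was Xlr3b, at -1.11. Of 10 further genes with an ERSE-II 7 were measured, and 4 lay above 0 with a median of 0.060. Krtcap2, a subunit of oligosaccharyltransferase, lay at 0.15 and Nucb1, a calcium-binding protein of the Golgi, at -0.094. These genes were named after their values were seen.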
